A study of Mus musculus with 16 samples.

Results

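The loci described here hold the genes of the acetylcholine receptor of skeletal muscle, Chrna1, Chrnb1, Chrnd, Chrng and Chrne, and the gene of the receptor kinase Musk. Their members were the peaks of 4 deposited lists, for RUNX1, MyoD, c-Jun and MyoG, that overlapped by at least 1 bp any of 5 windows fixed on the mouse build mm9. Chrnd and Chrng share a window. The windows took in 158 of 193303 peaks on chromosomes 1 to 19 and X: 42 of 42781 RUNX1 peaks, 30 of 45932 MyoD peaks, 35 of 42134 c-Jun peaks and 51 of 62456 MyoG peaks. The lists came from chromatin immunoprecipitation and sequencing (ChIP-seq) of primary cells grown from satellite cells (muscle stem cells) of the gastrocnemius of wild-type C57BL/6 mice aged 2 to 3 weeks. Proliferating myoblasts, 3 days in culture, gave the RUNX1 (with an in-house antibody), MyoD and c-Jun samples. MyoG was precipitated from myotubes after 4 days in culture, the last 24 hours of them in differentiation medium with horse serum and insulin. Each factor had 2 ChIP samples, which the labels call biological replicates, and 2 control samples, with non-immune rabbit serum for RUNX1, mouse IgG for MyoD and MyoG and rabbit IgG for c-Jun, so 16 samples in all. Each list gave 1 value per factor and no value per replicate or control, so neither a spread between cultures nor a test over samples was possible. The MyoG list carries an abbreviated name and was assigned to MyoG because it was the only list left.

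The muscle acetylcholine receptor is the ion channel that opens when a motor nerve releases acetylcholine. Chrna1, Chrnb1 and Chrnd encode its alpha, beta and delta subunits. Chrng encodes the gamma subunit of the fetal receptor, and Chrne the epsilon subunit that replaces it in adult muscle. Musk encodes the kinase that responds to agrin from the nerve and gathers the receptors under the nerve ending. MyoD and MyoG are basic helix-loop-helix factors that bind E-boxes, the short DNA motif CANNTG, and E-boxes upstream of receptor subunit genes are a textbook case of muscle gene control. RUNX1 is a Runt-domain factor, and c-Jun is a subunit of AP-1.

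The bases just upstream of these genes are shown because E-boxes are the motif that MyoD and MyoG share. RefSeq, on the build GRCm38.p6, gave a promoter for 5 of the 6 genes, all but Chrnd. The peaks are on mm9, and positions of the builds were not compared, so whether a peak covered any of these bases was not measured. The 250 bases before the annotated start are printed 5′ to 3′ on the strand of the gene, with each CANNTG match in capitals. They lie at chr2:73580339-73580588 on the minus strand for Chrna1, chr11:69795938-69796187 on the minus strand for Chrnb1, chr1:87205561-87205810 on the plus strand for Chrng, chr11:70619195-70619444 on the minus strand for Chrne and chr4:58285712-58285961 on the plus strand for Musk.
Chrna1: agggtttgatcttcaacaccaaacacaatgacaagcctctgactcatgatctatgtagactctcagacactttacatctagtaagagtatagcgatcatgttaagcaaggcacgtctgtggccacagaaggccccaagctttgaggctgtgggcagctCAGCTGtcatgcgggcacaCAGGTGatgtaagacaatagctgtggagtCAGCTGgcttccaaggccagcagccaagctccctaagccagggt
Chrnb1: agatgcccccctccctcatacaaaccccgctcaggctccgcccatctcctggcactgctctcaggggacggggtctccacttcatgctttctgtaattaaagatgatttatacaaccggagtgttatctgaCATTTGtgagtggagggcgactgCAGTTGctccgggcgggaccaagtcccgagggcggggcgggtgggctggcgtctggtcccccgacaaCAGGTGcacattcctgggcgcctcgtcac
Chrng: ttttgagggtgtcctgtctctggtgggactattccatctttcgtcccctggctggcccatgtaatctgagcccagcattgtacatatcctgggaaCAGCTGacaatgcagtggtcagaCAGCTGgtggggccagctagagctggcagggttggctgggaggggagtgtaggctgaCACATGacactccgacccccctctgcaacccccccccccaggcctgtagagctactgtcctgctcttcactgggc
Chrne: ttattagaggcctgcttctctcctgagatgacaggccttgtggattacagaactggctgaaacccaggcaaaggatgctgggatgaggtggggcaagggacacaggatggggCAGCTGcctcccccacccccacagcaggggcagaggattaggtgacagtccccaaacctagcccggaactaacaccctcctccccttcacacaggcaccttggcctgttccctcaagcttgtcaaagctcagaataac
Musk: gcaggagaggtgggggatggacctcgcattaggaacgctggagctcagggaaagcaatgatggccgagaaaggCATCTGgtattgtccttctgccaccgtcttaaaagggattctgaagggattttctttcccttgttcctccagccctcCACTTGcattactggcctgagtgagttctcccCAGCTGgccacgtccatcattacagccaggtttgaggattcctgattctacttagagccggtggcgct

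Of these 5 promoters, 4 held 3 E-boxes each, and Chrne held 1. At least 1 E-box was present in 66.2% of the 32851 RefSeq promoters of the same length, and 3 or more in 12.2%. The E-box CAGCTG, which is a match of CANNTG as well, stood in 4 of the 5 promoters, against 13% of all promoters. It began 92 and 44 bases before the start in Chrna1, 155 and 132 bases before it in Chrng, 138 before it in Chrne and 68 before it in Musk. The Chrnb1 promoter held other E-boxes in its place, CATTTG furthest from the start, then CAGTTG and nearest to it CAGGTG. The N-box CCGGAA, an ETS-factor motif known from synaptic genes, was found in Chrne alone, 76 bases before the start, against 12% of all promoters. The AP-1 motif TGANTCA was found in Chrna1 alone, 211 bases before the start, against 6.75% of all promoters. The RUNX motif TGTGGT was found in 0 of the 5, against 14% of all promoters. Both strands were searched, and a match or its absence describes the letters of these windows, not binding.

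All 4 factors had more peaks per length at the 5 windows together than over the chromosomes, and the loci differed widely from each other. Per 100 kb, the windows held 8.4 RUNX1, 6.0 MyoD, 7.0 c-Jun and 10.2 MyoG peaks, against 1.62, 1.74, 1.6 and 2.37 for the whole lists. The Chrnb1 window was the densest for every factor, and the Chrne window the sparsest for MyoD, c-Jun and MyoG. RUNX1 was sparsest at Musk. The chromosome-wide figure includes gene-poor stretches, and a comparison with windows around other genes was not run. Windows 25 kb shorter on each side held 86 of the 158 peaks.

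**Figure D1:**
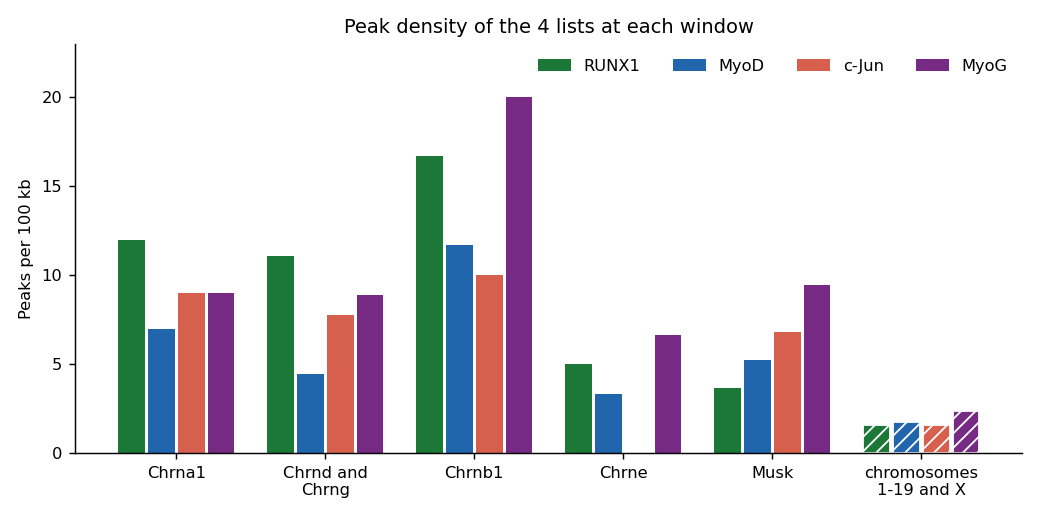
Peaks per 100 kb (vertical axis) of each list at the 5 windows and, hatched, over chromosomes 1 to 19 and X. Bars are single counts divided by length, with no replicate error. The Chrnb1 window reached 20 MyoG peaks per 100 kb, and the Chrne window had no c-Jun bar.

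Peak scores at the windows were spread over nearly the whole range of each list. The score is the authors' value for a peak. It started at 50.01 in each list and piled up at 3100, a ceiling at or above which 0.764% to 1.9% of the peaks of a list lay. At the windows the lowest and highest scores were 54.4 and 3100 for RUNX1, 64.0 and 3100 for MyoD, 51.2 and 3100 for c-Jun and 50.1 and 3100 for MyoG. The median was 154 for RUNX1, against 177 for its whole list. It was 224 against 176 for MyoD, 267 against 171 for c-Jun and 220 against 189 for MyoG. Among the highest-scoring 10.0% of their own lists were 3 of the 42 RUNX1 peaks, 5 of the 30 MyoD peaks, 6 of the 35 c-Jun peaks and 9 of the 51 MyoG peaks.

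At Chrna1, the alpha subunit gene, all 4 factors met in 1 region at scores among the highest of their lists. This region lay at chr2:73416318-73419585 (mm9, as all peak positions here). MyoD and RUNX1 both stood at 3100, a score reached by 1.9% and 0.979% of their lists. MyoG scored 3075, reached by 1.27% of its list, and c-Jun 1886, reached by 2.97%. The RUNX1 peak and the c-Jun peak covered the upper part of the region, from positions 73417790 and 73417845 on. The MyoD peak was 2689 bp wide. It held the whole of a weaker MyoG peak and most of the stronger one. The weaker one, with a score of 734, overlapped the start of the RUNX1 peak. The centre of the MyoD peak lay 895 bp from that of RUNX1. It lay 1053 bp from that of c-Jun and 940 bp from that of the stronger MyoG peak.

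The window of 100 kb, chr2:73350000-73450000, held 12 RUNX1, 7 MyoD, 9 c-Jun and 9 MyoG peaks. As many RUNX1 peaks were found in 0.774% of chromosome windows of that length, as many MyoD peaks in 6.07%, as many c-Jun peaks in 1.51% and as many MyoG peaks in 7.21%. They merged into 14 regions, of which 5 held all 4 factors, against 10.7% of all regions over the chromosomes. Every MyoD peak of the window met both a RUNX1 and a MyoG peak, 7 of 7. The lists at large had 42.5% of MyoD peaks with RUNX1 and 77.1% with MyoG.

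The other Chrna1 regions had unlike leading factors. At chr2:73446673-73448743, MyoG (1537) and c-Jun (1061) scored above MyoD (597) and RUNX1 (217). MyoG also led at chr2:73449518-73450561, a region across the window's edge, with 1300 beside 594 for MyoD and 66.1 for RUNX1 and without c-Jun. MyoD led at chr2:73363779-73365623, with 706 beside 518 for c-Jun, 343 for MyoG and 138 for RUNX1. A pair of adjacent regions that held all 4 factors, at chr2:73410271-73411614 and chr2:73412243-73413267, had scores from 229 to 508 and from 51.2 to 122. RUNX1 and c-Jun also met without MyoD or MyoG in 3 of the 14 regions, against 5.2% of all regions over the chromosomes. The highest RUNX1 score among these 3 was 585, with c-Jun at 52.3. Scores of different lists are set side by side only as the authors' values, since nothing shows that their scales match.

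**Figure D2:**
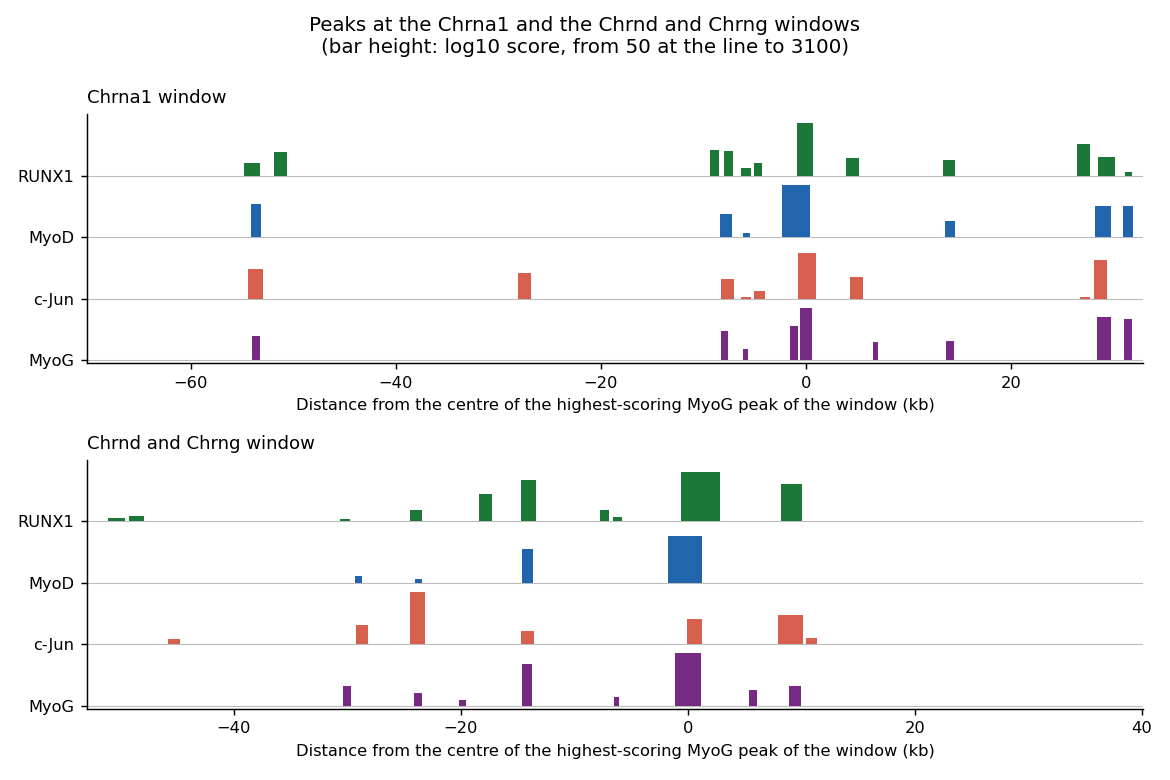
Peaks of the 4 lists at the Chrna1 window and at the Chrnd and Chrng window, by distance in kb from the centre of the highest-scoring MyoG peak of each window. Each bar is a peak, as wide as the peak and as tall as the log10 of its score above 50, so that a bar of full height stands for 3100. All 4 rows have tall bars at 0 in the Chrna1 window, and the tallest c-Jun bar of the other window stands apart from the tallest MyoG, MyoD and RUNX1 bars.

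At the shared Chrnd and Chrng locus, MyoG, MyoD and RUNX1 had their highest scores in 1 region and c-Jun in another. The first lay at chr1:89099667-89104271 and was 4605 bp wide. MyoG scored 3100 there, reached by 1.24% of its list. RUNX1 scored 2367, reached by 1.98%, MyoD 1951, reached by 4.74%, and c-Jun 358, reached by 28.8%. The second lay at chr1:89076958-89078292, where c-Jun stood at 3100, reached by 0.764% of its list. MyoG (135), RUNX1 (116) and MyoD (66.4) were all weak in that region, at scores that 60.6%, 64.3% and 88.8% of their lists reached. One more region with all 4 factors, at chr1:89086666-89088059, had MyoG at 1354, RUNX1 at 1265, MyoD at 728 and c-Jun at 143.

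The window of 90 kb, chr1:89050000-89140000, held 10 RUNX1, 4 MyoD, 7 c-Jun and 8 MyoG peaks. As many were found in 1.28%, 16.5%, 3.23% and 7.81% of chromosome windows of that length. Of its 15 regions, 3 held all 4 factors, against 10.7% of all regions over the chromosomes. A single factor was listed in 8 regions, against 48.3%. RUNX1 was alone in 4 of these 8, with scores of 65.5, 72.7, 119 and 439. Over the chromosomes, 10.8% of all regions held RUNX1 alone, against 4 of 15 here. MyoD met RUNX1 in 3 of 4 peaks, and the fourth, with a score of 85.4, met c-Jun and neither RUNX1 nor MyoG. At chr1:89109383-89111566, RUNX1 (907), c-Jun (491) and MyoG (240) met without a MyoD peak.

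At Chrnb1, the beta subunit gene, peaks were densest, and 2 of 35 scored 1000 or more. Both were in the region at chr11:69612540-69615548, with MyoG at 1465 and MyoD at 1144. In the whole lists, 10.9% of RUNX1 peaks reached 934 and 11.7% of MyoD peaks reached 1026. For c-Jun, 8.48% reached 1061, and for MyoG, 12.6% reached 989. The RUNX1 peak there scored 553 and the c-Jun peak 61.4. RUNX1 and c-Jun had their highest scores elsewhere in the window, RUNX1 at chr11:69570935-69574530 with 934 and c-Jun at chr11:69608525-69610097 with 840. In the latter, RUNX1 reached 855 as well, while MyoG stood at 266 and MyoD at 103.

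The window of 60 kb, chr11:69570000-69630000, held 10 RUNX1, 7 MyoD, 6 c-Jun and 12 MyoG peaks. As many were found in 0.221%, 1.6%, 1.88% and 0.592% of chromosome windows of that length. Of its 14 regions, 4 held all 4 factors, against 10.7% of all regions over the chromosomes. Each of the 6 c-Jun peaks met both a RUNX1 and a MyoG peak. In the whole c-Jun list 46.8% met RUNX1 and 45.1% met MyoG. MyoD met RUNX1 in 4 of 7 peaks, against 42.5% of its list. The other 3 had MyoD scores from 70.6 to 160 and a MyoG peak each, with MyoG scores from 89.5 to 185.

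At Chrne, the adult subunit gene, MyoG and MyoD met in both of their stronger sites, each time beside a weak RUNX1 peak and without c-Jun. At chr11:70419060-70421026, MyoG scored 2233, reached by 3.05% of its list, MyoD 1026, reached by 11.7%, and RUNX1 140, reached by 57.7%. At chr11:70435163-70436136, MyoG scored 989, MyoD 522 and RUNX1 97.1. The window of 60 kb, chr11:70400000-70460000, held 3 RUNX1, 2 MyoD, 0 c-Jun and 4 MyoG peaks. As many RUNX1, MyoD and MyoG peaks were found in 14.5%, 25.9% and 14.5% of chromosome windows of that length, and 56.3% had no c-Jun peak. The remaining MyoG peaks, with scores of 81.4 and 65.2, were alone.

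The count of c-Jun at Chrne turned on where the window ended. A c-Jun peak (81.0) began 0.084 kb past the upper edge and met the RUNX1 peak (168) that crossed it, and another, with a score of 50.3, ended 0.38 kb before the lower edge. Both were weak for their list, of which 77.6% reached 81.0. The absence of a listed c-Jun peak does not show that c-Jun was absent, since depth is unknown.

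At Musk, MyoD scored 1000 or more in 4 regions, and RUNX1 was listed in 1 of these. In the whole list, 55.3% of MyoD peaks at or above the median score met RUNX1, and 13 of 17 did over the 5 windows. The share of the list at scores of 1000 or more was not computed. MyoD scored 2885 at chr4:58281300-58282559, reached by 2.26% of its list, and met RUNX1 at 234, c-Jun at 839 and MyoG at 1247. In the other 3, no RUNX1 peak was listed. MyoD scored 2159 at chr4:58298037-58300315, with MyoG at 649 and no c-Jun. It scored 1736 at chr4:58301119-58302582, with c-Jun at 1906 and MyoG at 1282, the highest MyoG score of the window. It scored 1148 at chr4:58318812-58321003, with MyoG at 572 and c-Jun at 201.

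No RUNX1 peak at Musk scored as high as the strongest RUNX1 peaks of the Chrna1, Chrnd and Chrng, and Chrnb1 windows. At Chrne the highest RUNX1 score was lower still, 168. The 7 RUNX1 scores at Musk ran from 56.6 to 308. Their median was 129 against 177 for the whole list, and the highest was reached by 34.2% of the list. Of the 10 MyoD peaks, 3 met RUNX1, against 7 of 7 at Chrna1, 3 of 4 at Chrnd and Chrng, 4 of 7 at Chrnb1, 2 of 2 at Chrne and 42.5% of the whole MyoD list. These differences between loci are counts of neighbouring peaks and were not tested. The window of 190 kb, chr4:58250000-58440000, held 7 RUNX1, 10 MyoD, 13 c-Jun and 18 MyoG peaks. As many were found in 17.8%, 9.3%, 2.52% and 4.83% of chromosome windows of that length.

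At Musk, 5 of the 13 regions with c-Jun held c-Jun alone (38.5%), near the 34.2% of such regions over the chromosomes. Their c-Jun scores were 1130 at chr4:58287959-58289173 and from 55.3 to 121 at the others. The highest c-Jun score of the window, 3100, lay at chr4:58413331-58416289, where 2 RUNX1 peaks (221 and 68.7) and a MyoD peak (160) met it and no MyoG peak did. MyoG alone was listed in 4 of the 23 regions, against 16.7% of all regions over the chromosomes, with scores from 84.6 to 220. Between chr4:58343688 and chr4:58376731 lay a stretch of 33.0 kb without a peak of any list, the widest such gap within the 5 windows.

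**Figure D3:**
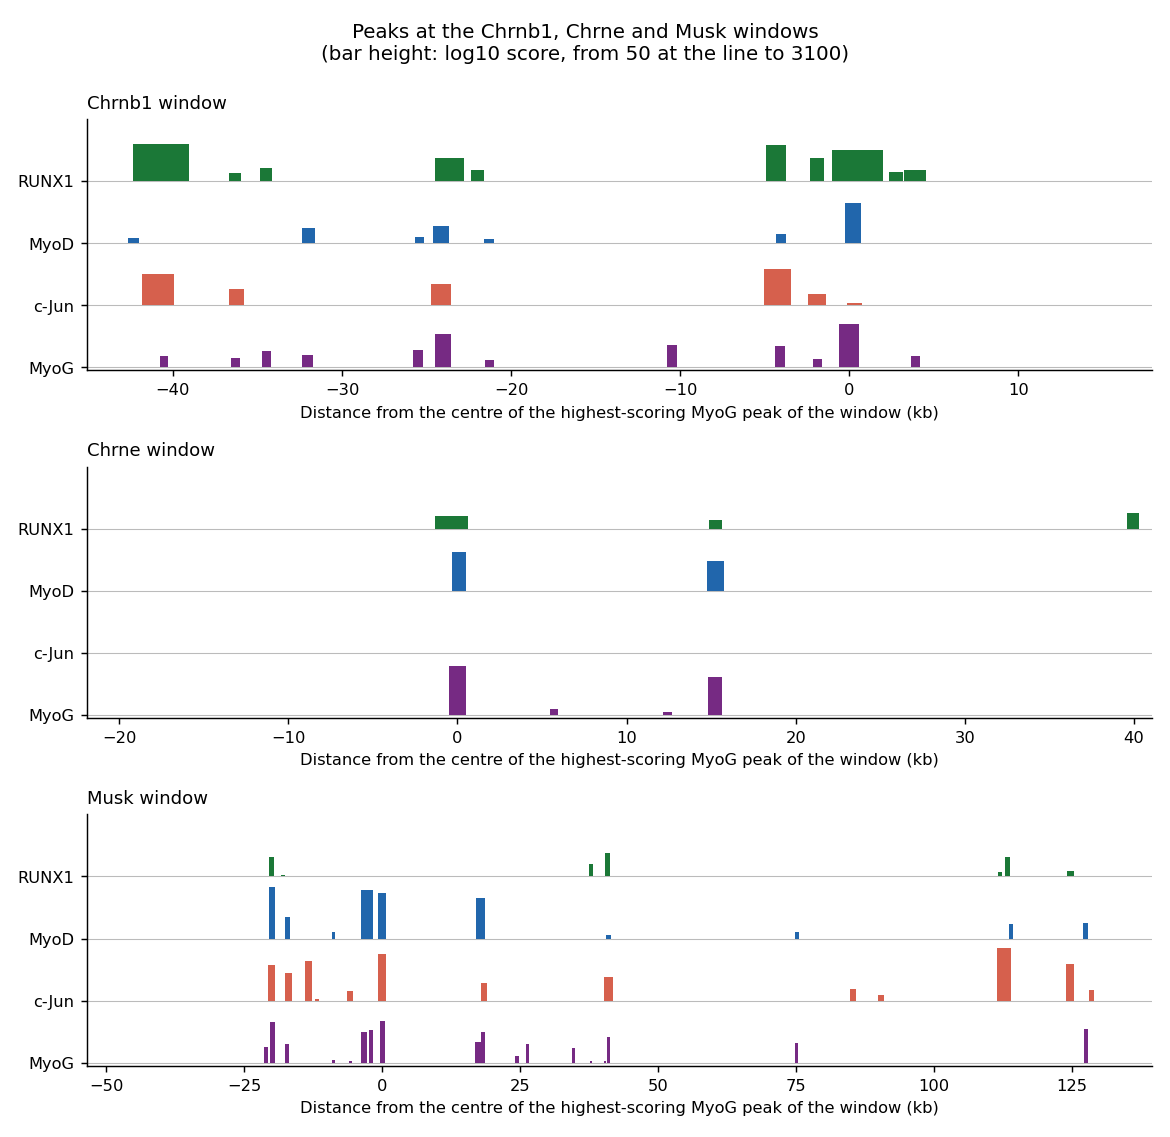
Peaks at the Chrnb1, Chrne and Musk windows, drawn as distance in kb from the centre of the highest-scoring MyoG peak of each window, with bar height the log10 of the score from 50 to 3100. The c-Jun row of the Chrne window is empty, and the tall MyoD bars at 0 and next to it at Musk have no RUNX1 bar above them.

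Across the loci, most MyoD peaks of myoblasts overlapped a MyoG peak of myotubes, as they did in the whole list. Of 30 MyoD peaks, 27 met a MyoG peak, 90.0% with an exact 95% binomial interval from 73.5% to 97.9%. The share of the whole list, 77.1%, lay inside this interval. With centres within 200 bp, 73.3% met MyoG, against 70.9% of the list. All 17 MyoD peaks at or above the list's median score met MyoG, against 90.2% of such peaks in the list. Of the 13 below it, 10 did, against 64.1%. The 3 MyoD peaks that met no MyoG scored 76.9, 85.4 and 160, at Chrnb1, at Chrnd and Chrng and at Musk. None of the 71 merged regions held MyoD alone, against 6.52% of all regions of the lists. This difference was not tested, and the denser peaks of the windows were not allowed for. The intervals given here cover counting error only and treat neighbouring peaks as separate.

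MyoG peaks without MyoD were the weaker ones. The 31 MyoG peaks that met MyoD had a median score of 564, and the 20 that did not had a median of 119 and a highest score of 280. In the whole MyoG list these medians were 378 and 102, so the order was that of the list. MyoG met MyoD in 8 of 9 peaks at Chrna1, in 12 of 18 at Musk, in 6 of 12 at Chrnb1, in 2 of 4 at Chrne and in 3 of 8 at Chrnd and Chrng, against 57.7% of the list. Factor and cell stage differed together, so they cannot be told apart.

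Where MyoD and MyoG met, their closest centres mostly lay near each other, and strong sites of one tended to be strong sites of the other. The median distance between the closest centres was 45.5 bp, between 2.0 and 555 bp over 27 MyoD peaks, against 53.5 bp in the whole list. It was at most 200 bp for 22 of the 27. The closest centre can be that of a weaker MyoG peak. The highest MyoG peak had its centre 940 bp from MyoD in the Chrna1 region with MyoD at 3100. In the Musk region with MyoD at 2159 this distance was 704.5 bp. Over the 28 regions with both factors, Spearman's rho between the highest MyoD and the highest MyoG score was 0.80, against 0.54 over the 34348 such regions of the lists. For RUNX1 and MyoD it was 0.31 over 19 regions, against 0.21. For RUNX1 and c-Jun it was 0.06 over 23 regions, against 0.15, and for c-Jun and MyoD 0.05 over 19 regions, against 0.23. The 28 regions include that at chr11:69570935-69574530 of Chrnb1, where MyoD and MyoG did not overlap. The regions share windows and libraries, and these values are a description.

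**Figure D4:**
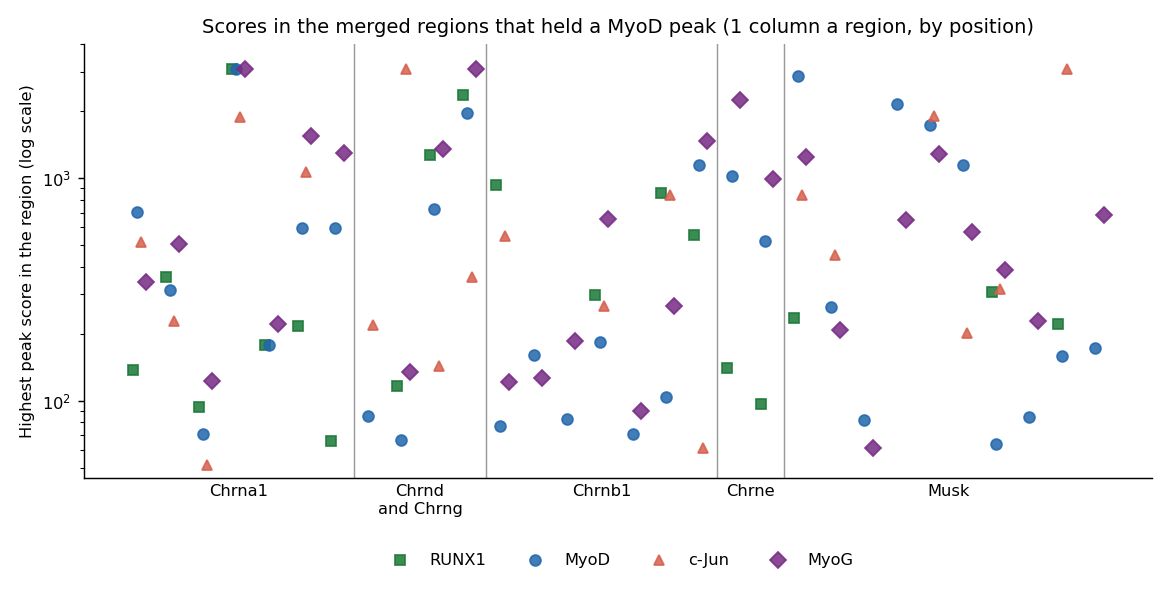
Highest score of each list (vertical log axis, no unit) in the 30 merged regions of the windows that held a MyoD peak, 1 column a region in order of position within each locus. At Musk, the MyoD circles at 2159, 1736 and 1148 have no RUNX1 square in their column. At Chrna1, every column has one.

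RUNX1 peaks met MyoD in a share close to that of the whole list. A MyoD peak overlapped 19 of 42 RUNX1 peaks, 45.2% (29.8% to 61.3%), against 44.3% of the list. With centres required to lie within 200 bp, 8 of 42 did, against 29.0% of the list. No interval was computed for this share, and the difference was not tested. A c-Jun peak overlapped 24 of 42, 57.1% (41.0% to 72.3%), against 46.8%, and a MyoG peak 26 of 42, 61.9% (45.6% to 76.4%), against 57.9%. In the other direction, 19 of 30 MyoD peaks met RUNX1, 63.3% (43.9% to 80.1%), against 42.5%. The centres of overlapping RUNX1 and MyoD peaks lay further apart than those of MyoD and MyoG, at a median of 259 bp over 19 RUNX1 peaks, against 123 bp in the list.

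c-Jun met RUNX1, MyoG and MyoD in that order of frequency, with counts that differed by at most 4 peaks. Of 35 c-Jun peaks, 22 met RUNX1 (62.9%, against 46.8% of the list), 18 met MyoD (51.4%, against 44.0%) and 21 met MyoG (60%, against 45.1%). A c-Jun peak met 18 of 30 MyoD peaks (60%, 40.6% to 77.3%, against 41.9% of the list) and 22 of 51 MyoG peaks (43.1%, against 32.8%). RUNX1 met 28 of 51 MyoG peaks (54.9%, against 42.4%).

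**Figure D5:**
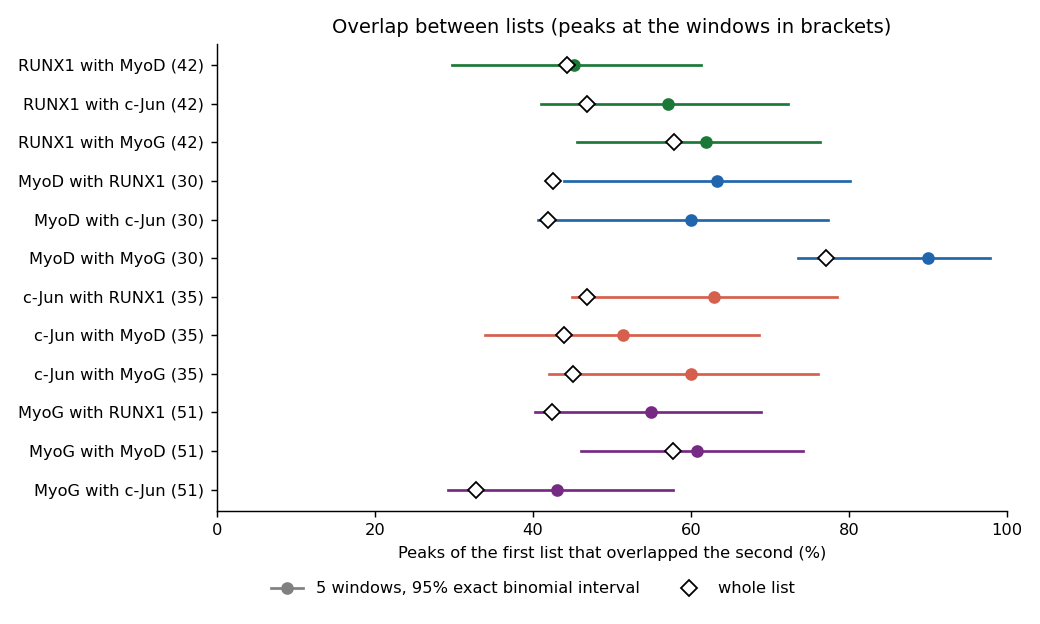
Share in percent of the peaks of a list that overlapped a peak of a second list, for the 5 windows together (filled circles, with exact 95% binomial intervals for counting error) and for the whole list (open diamonds). The 12 circles lie to the right of their diamonds, and they count each pair of lists in both directions. MyoD with RUNX1 is the one whose diamond, at 42.5%, lies outside the interval. In the reverse direction, RUNX1 with MyoD, the circle is at 45.2% and the diamond at 44.3%. With centres within 200 bp, 8 of 42 RUNX1 peaks met MyoD, against 29.0% of the list. The intervals treat neighbouring peaks as separate, and the denser peaks of the windows were not allowed for. These differences were not tested.

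Merging joined peaks in chains, so 2 factors of a region need not overlap, as at chr11:69570935-69574530 of Chrnb1. Merged over the 4 lists, the windows held 71 regions, and 14 of these held all 4 factors. This was 19.7% (11.2% to 30.9%), against 10.7% of 99548 regions over the chromosomes. Joining peaks only by centres within 200 bp gave 7 of 96 regions with all 4 factors (7.29%, against 5.27%). Peaks with scores of at least 100 gave 9 of 57 (15.8%, against 8.93%). The 14 comprised 5 of 14 regions at Chrna1, 4 of 14 at Chrnb1 and 3 of 15 at Chrnd and Chrng. Musk had 2 of 23 and Chrne 0 of 5, both below the share over the chromosomes. A further 7 regions held MyoD and MyoG only (9.86%, against 12.4%), of which 4 were at Musk and 3 at Chrnb1. MyoD, c-Jun and MyoG without RUNX1 met in 3 regions, all at Musk (4.23%, against 4.75%), and RUNX1, MyoD and MyoG without c-Jun in 4, at Chrna1 and Chrne (5.63%, against 6.72%). These were close to the shares over the chromosomes. A single factor was listed in 27 regions (38.0%, against 48.3%). MyoG was alone in 10 (14.1%, against 16.7%), RUNX1 in 9 (12.7%, against 10.8%) and c-Jun in 8 (11.3%, against 14.3%). These shares of single factors lay near those over the chromosomes.

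Peaks were assigned to a locus by window, and not to a gene. RefSeq on GRCm38.p6 places Wipf1 and Chn1 next to Chrna1, Zbtb4 and Fgf11 next to Chrnb1, Mink1 next to Chrne, Prss56 and Eif4e2 beside the pair Chrnd and Chrng, and Svep1 and Lpar1 next to Musk. Distances to gene starts, exons and introns on mm9 were not analysed here. The first peaks past the upper edges were a MyoD peak (202) 13.8 kb above the Chrna1 window, a MyoD peak (64.5) 9.13 kb above the Chrnd and Chrng window, a c-Jun peak (111) 20.9 kb above the Chrnb1 window and a MyoD peak (115) 0.927 kb above the Musk window. Past the lower edges, a MyoG peak (247) lay 3.82 kb below Chrna1 and a c-Jun peak (798) 10.2 kb below Chrnd and Chrng. A c-Jun peak (260) lay 1.04 kb below Chrnb1 and a RUNX1 peak (257) 30.4 kb below Musk.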

How the data were processed

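Peaks of RUNX1, MyoD, c-Jun and MyoG were taken from 4 deposited lists, 1 per factor. Each holds a score per peak that the authors' software wrote, and the peak names begin with MACS, a peak caller, per the files. CASAVA 1.7.0 and 1.8.2, Bowtie and the build mm9 are named in the submitters' processing notes. Not given in the sources used here are the version and settings of MACS, its control, and whether it was run on pooled replicates. Read depth is unknown. Control samples had no values and were not analysed here.

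Peaks on chromosomes 1 to 19 and X were used, including 45932 of 45951 MyoD peaks. Positions were written 1-based. Overlap meant at least 1 bp, and overlapping peaks of the 4 lists were merged into regions. Background windows were laid end to end from each chromosome's first base to its last listed peak. Overlap and merging were checked on simulated peaks. Every region with 2 or more lists and the highest peak of each list per locus could be named, and others were named after their values were seen. The genes, windows and motifs were chosen with earlier results of these data known. No test was run, since the lists carry no replicates. Alternatives were another overlap rule, a score of at least 100, longer or shorter windows and leaving out each locus. Computing used numpy 2.4.6 and pandas 2.3.3 under Python 3.11.15, intervals scipy 1.17.1, and plots matplotlib 3.10.9.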

Additional observations from a re-analysis of the deposited data

How the results depend on the processing

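Of 42 alternatives, 29 gave a count within 1.5 times the reported one or a share inside its exact 95% interval, and 13 did not. With windows 25 kb shorter on each side the peaks fell to 19 for RUNX1, 14 for MyoD, 22 for c-Jun, 31 for MyoG and 86 for all lists, and with windows 25 kb longer c-Jun rose to 53. The windows then cover less or more sequence by construction. With centres within 200 bp, 7 regions held all 4 factors in place of 14. By that rule 73.3% of MyoD peaks met MyoG in place of 90.0% (70.9% of the list in place of 77.1%). MyoD then met 19% of RUNX1 peaks in place of 45.2% (29.0% of the list in place of 44.3%). With scores of at least 100, 9 regions held all 4 factors. Splits at the list's median score were chosen after seeing the data. By these, 100% of the stronger MyoD peaks met MyoG, and MyoD met 65.0% of the stronger and 27.3% of the weaker RUNX1 peaks, the same order as the 51.9% and 36.7% of the whole list. Leaving out each locus in turn gave 87.0% to 92.3% of MyoD peaks with MyoG and 40% to 50% of RUNX1 peaks with MyoD. No paired analysis was possible because each list is a single value per factor, and for that reason no alternative without a replicate was run.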
